A study of Mus musculus with 8 samples.

Results

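The 36 genes described here encode enzymes and membrane proteins of the lysosome. They were picked by symbol as genes of the lysosome: 8 proteases, 10 glycosidases, 4 sulfatases, 8 lipid enzymes and activators, and 6 membrane proteins and regulators. Each of the 36 symbols was found among the 50686 gene identifiers of the deposited table, and all 36 passed the filter on low counts among 20473 genes tested. The libraries came from mouse embryonic stem cells (mESCs) of 2 genotypes, wild type (R9wt) and Rad9-/- (R9del, lacking the DNA damage checkpoint gene Rad9), which were cultured in sealed payloads on a recoverable satellite (Space) or on the ground (Ground) for 1 day (D1) or 5 days (D5). Each of the 8 combinations had 1 library, so the comparisons below set 4 libraries against 4, and p-values measure the spread between cultures that also differ in the other conditions. Space and ground cultures shared the device, the seeding numbers, fixation in RNAlater and cold storage. Per the paper, only the space group met microgravity, space radiation, other stress of space, and vibration at launch and return. These cannot be told apart. Culture duration cannot be told apart from the device group and the number of cells seeded. At D5 more R9del than R9wt cells were seeded, so genotype and seeding number cannot be told apart there, and the labels name no clone of the R9del cells.

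Lysosomes are acidic organelles in which hydrolases break down proteins, glycans and lipids delivered by endocytosis and autophagy. Many of their genes share a regulator, the transcription factor TFEB, which binds the CLEAR element, an E-box (CACGTG) with preferred flanking bases, and which moves to the nucleus when mTORC1 on the lysosomal membrane is inactive. Neu1 encodes the lysosomal sialidase, which removes sialic acid from glycans. The sialidase is active only in a complex with cathepsin A (Ctsa), which also holds beta-galactosidase (Glb1). In pluripotent stem cells lysosomes take part in nutrient sensing and in the turnover of surface proteins. The comparisons ask how the members differed by location, genotype and culture duration, and whether they followed Neu1.

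The libraries held 58238440 to 96416907 counts. Rad9a lay at 20.8 to 28.6 CPM (counts scaled to library size with edgeR's TMM factors) in the R9del libraries and at 70.3 to 93.4 CPM in the R9wt libraries, in the direction of the labels. All 8 stem cell markers were detected in every library, with a sum of 4352 to 7819 CPM. Macrophages are rich in lysosomes, and the 6 macrophage markers summed to 44.0 to 194 CPM. Ptprc, Adgre1 and Tyrobp were at 0 in at least 1 library, and the list also holds Cd68, itself a lysosomal membrane protein. The 10 fibroblast or feeder markers summed to 28.4 to 87.3 CPM, with Col3a1, Lum, Dcn, Postn and Twist2 at 0 in at least 1 library. In bulk RNA, fewer cells of a type and less RNA per cell cannot be told apart.

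The 36 members together took 0.417% to 1.12% of the counts. Their sum was lowest in Ground_R9del_D1 at 4090 CPM and highest in Space_R9wt_D1 at 10778 CPM. The other sums were 4687 CPM in Ground_R9wt_D1, 7955 in Ground_R9wt_D5, 4355 in Ground_R9del_D5, 8224 in Space_R9wt_D5, 4805 in Space_R9del_D1 and 6539 in Space_R9del_D5. Per kilobase of exon, the level of Ctsd, the aspartic protease cathepsin D, was highest at a mean of 505 CPM per kb. Psap, the precursor of the saposins that present sphingolipids to their hydrolases, followed at 271 CPM per kb. Hexa, the alpha subunit of beta-hexosaminidase, had 143 CPM per kb, Lamp1, an abundant membrane glycoprotein, 123 CPM per kb, and Neu1 26.8 CPM per kb. The sulfatases were low, with Arsa (arylsulfatase A) leading at 5.57 CPM per kb and Arsb (arylsulfatase B) lowest of all 36 members at 0.345 CPM per kb.

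Because TFEB is 1 of the members, their promoters were searched for its motif. RefSeq windows of 300 bases (build GRCm38.p6, 250 bases before to 50 after a start site) were at hand for 31 of the 36 members. The E-box CACGTG, which reads the same on both strands, occurred in the windows of 12 of the 31 members, and in 7.15% of all 32851 promoter windows of that table. The longer TCACGTGA, the core of the CLEAR element, which contains the E-box, occurred in 5 of 31 members (Cln3, Ctsa, Ctsd, Gla and Mcoln1) and in 0.974% of all windows. Counted by windows, since some members have several, 33.3% of the 36 member windows held the E-box and 13.9% the CLEAR core. The stretches that hold the CLEAR core are given because they carry the motif searched, and each E-box or CLEAR core within a stretch is in capitals. In Ctsa a core began 13 bases before the start, with another after the start that the stretch leaves out, in Mcoln1 46, in Ctsd 99, in Cln3 122 and in Gla 228 and 195, each counted on the gene's strand. The stretches are chr2:164833713-164833772 (+) for Ctsa, chr8:3500434-3500493 (+) for Mcoln1, chr7:142387893-142387952 (-) for Ctsd, chr7:126583339-126583398 (-) for Cln3 and chrX:134601184-134601243 (-) for Gla.
Ctsa: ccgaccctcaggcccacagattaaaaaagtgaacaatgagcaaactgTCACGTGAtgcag
Mcoln1: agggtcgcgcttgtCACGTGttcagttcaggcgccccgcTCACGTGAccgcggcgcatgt
Ctsd: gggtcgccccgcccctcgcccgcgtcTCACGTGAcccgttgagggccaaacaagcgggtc
Cln3: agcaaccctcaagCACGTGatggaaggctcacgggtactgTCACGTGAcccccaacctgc
Gla: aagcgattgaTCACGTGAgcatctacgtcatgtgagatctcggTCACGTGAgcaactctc

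The windows of Neu1 and of Hexa and Lamp2, whose levels ran closest to Neu1 beside Ctsa, held neither run of letters. For comparison, the bases up to their starts are chr17:34931133-34931252 (+) for Neu1, chr9:59539480-59539539 (+) for Hexa and chrX:38456461-38456520 (-) for Lamp2, with no capitals because no motif occurs.
Neu1: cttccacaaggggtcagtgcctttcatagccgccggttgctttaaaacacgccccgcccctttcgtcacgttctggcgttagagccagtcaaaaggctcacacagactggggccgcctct
Hexa: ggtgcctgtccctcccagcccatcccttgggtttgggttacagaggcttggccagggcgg
Lamp2: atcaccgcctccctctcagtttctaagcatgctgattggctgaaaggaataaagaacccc

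Neu1 was lower in all 4 R9del libraries than in any R9wt library. The gene (ENSMUSG00000007038) lies at chr17:35068198-35072898 on the plus strand of mm9, with 5 exons. Wild-type mESCs had 72.8 CPM of Neu1 on the ground at D1, 177 on the ground at D5, 293 in space at D1 and, lower again, 102 in space at D5. R9del mESCs, in the same order, had 28.9, 49.8, 29.4 and 48.1 CPM. The wild-type libraries thus spread widely and the R9del libraries narrowly, with means of 161 ± 98.2 and 39.0 ± 11.4 CPM (SD, n = 4 libraries each). The edgeR log2 fold change of R9del against R9wt was -2.04 (SE 0.44, adjusted p = 0.0495). The adjusted p of Neu1 was past 0.05 with DESeq2 size factors (0.0503), library size alone (0.0554) and no filter (0.0583), and when any library but Ground_R9wt_D1 was left out. On the difference of mean log2 CPM, -1.89, a two-sided exact permutation test over the 70 splits gave p = 0.0286, the smallest it can give, and 0.0857 after Benjamini-Hochberg adjustment over the 3 comparisons of Neu1. Space and ground libraries overlapped, at 118 ± 120.5 and 82.2 ± 66.0 CPM (SD, n = 4, two-sided exact permutation p = 0.771). So did D5 and D1, at 94.2 ± 60.8 and 106 ± 126 CPM (SD, n = 4, two-sided exact permutation p = 0.714).

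In R9del against R9wt, 8 members fell and 1 rose by 2-fold or more with an unadjusted p under 0.05. Among all genes tested, 7.39% fell and 6.37% rose by that rule. The members that fell were Neu1, Idua, Hexa, Arsa, Lamp2, Ctsa, Arsb and Galc, and Manba rose. With an adjusted p under 0.05 in place of the unadjusted one, 3 members fell (Neu1, Arsa and Lamp2, against 0.850% of all genes) and none rose (against 1.18%). That count was 7 without Ground_R9wt_D1, 0 when any other single library was left out, and 1 with library size alone or no filter. Over all genes, both directions together, 535 of 21084 were called without Ground_R9wt_D1 and 0 to 105 without any other library. Library size alone gave 369 of 20473 and no filter 157 of 35478. With the matched pairs of libraries as a replicate block, 6 members fell by the adjusted rule, the additional ones being Ctsa (adjusted p = 0.0442), Hexa (0.0435) and Idua (0.0191). The calls over all 20473 genes, both directions together, went from 416 to 1402 with the block. The groups did not overlap for 7 members lower in R9del, Neu1, Idua, Arsa, Lamp2, Ctsa, Npc2 and Asah1, against 7.19% of all genes, and for no member higher in R9del, against 7.10%. The summed macrophage markers were 44.4, 162, 194 and 98.1 CPM in R9wt and 44.0, 45.03, 64.1 and 54.4 CPM in R9del (ground D1, ground D5, space D1, space D5). Nearly all of this was Cd68, at 43.2, 160, 193 and 86.9 CPM in R9wt. Of the 4 markers that passed the filter, Cd68, Csf1r and Fcgr3 had negative log2 fold changes (-1.25, -1.99 and -0.78, the first called) and Ptprc a positive one (1.86). Adgre1 was at 0 in every library, and Tyrobp in all but Space_R9wt_D1. The summed fibroblast markers were 40.6, 71.7, 54.4 and 87.3 CPM in R9wt and 28.4, 37.7, 35.2 and 53.5 CPM in R9del, lower in R9del in all 4 pairs. Pdgfrb of that list was called lower (-1.30, adjusted p = 0.159). Col1a1 and Col3a1 had positive values (0.16 and 1.77) and the other tested fibroblast markers negative ones, with a median of -0.72. Of the 8 stem cell markers, Dppa5a was called lower (-1.03, adjusted p = 0.133), and the median of the list was 0.17. Of the 10 endoderm markers, Sox7 was called higher (2.41, adjusted p = 0.191), and the median of that list was -0.10. No trophoblast marker was called, with a median of -0.75 over the 6 tested. The part of any of these in the genotype values was not tested.

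Ctsa, the serine carboxypeptidase that holds the Neu1 sialidase in its active form, fell with a log2 fold change of -1.45 (SE 0.34, adjusted p = 0.0627). Its R9wt libraries had 213, 321, 605 and 279 CPM, in the order ground D1, ground D5, space D1, space D5 that is kept through the genotype values. The R9del libraries had 121, 138, 96.1 and 161 CPM. All 4 R9del values lay under the lowest R9wt value, and Space_R9wt_D1 stood above the other 3 R9wt libraries. Of the exon length of Ctsa (mm9 chr2:164658373-164666532), 17.4% overlaps genes on the opposite strand, Neurl2 and Pltp, and whether the counting used strand is not given in the sources used here.

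Hexa, part of the enzyme that degrades GM2 ganglioside, fell by 1.59 on the log2 scale (SE 0.40, adjusted p = 0.0694). It had 180, 406, 687 and 338 CPM in R9wt and 112, 131, 100.4 and 188 CPM in R9del. The groups met only where Ground_R9wt_D1 lay below Space_R9del_D5. Hexa lies at mm9 chr9:59387474-59412914 on the plus strand.

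Lamp2, the membrane glycoprotein that serves as the receptor of chaperone-mediated autophagy, fell by 1.499 (log2, SE 0.28, adjusted p = 0.0407), and was at 142, 306, 330 and 241 CPM in R9wt and 73.8, 102, 89.1 and 92.9 CPM in R9del. Arsa, which desulfates sulfatides, fell by 1.57 (log2, SE 0.32, adjusted p = 0.0449), from 20.1, 32.5, 41.7 and 28.6 CPM to 8.30, 9.66, 8.39 and 14.7 CPM. Idua, the alpha-L-iduronidase of glycosaminoglycan breakdown, fell by 1.82 (log2, SE 0.44, adjusted p = 0.0654), from 14.9, 21.8, 60.3 and 35.9 CPM to 6.41, 9.89, 10.9 and 10.2 CPM. For these 3 genes the genotypes did not overlap, and Space_R9wt_D1 was the highest library of each. An opposite-strand gene overlaps 18.8% of the exon length of Arsa, and 4.84% of 100-base tiles of Idua match elsewhere in the genome with up to 2 differences, as do 9.38% of those of Psap and 9.09% of those of Lamp1.

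**Figure D1:**
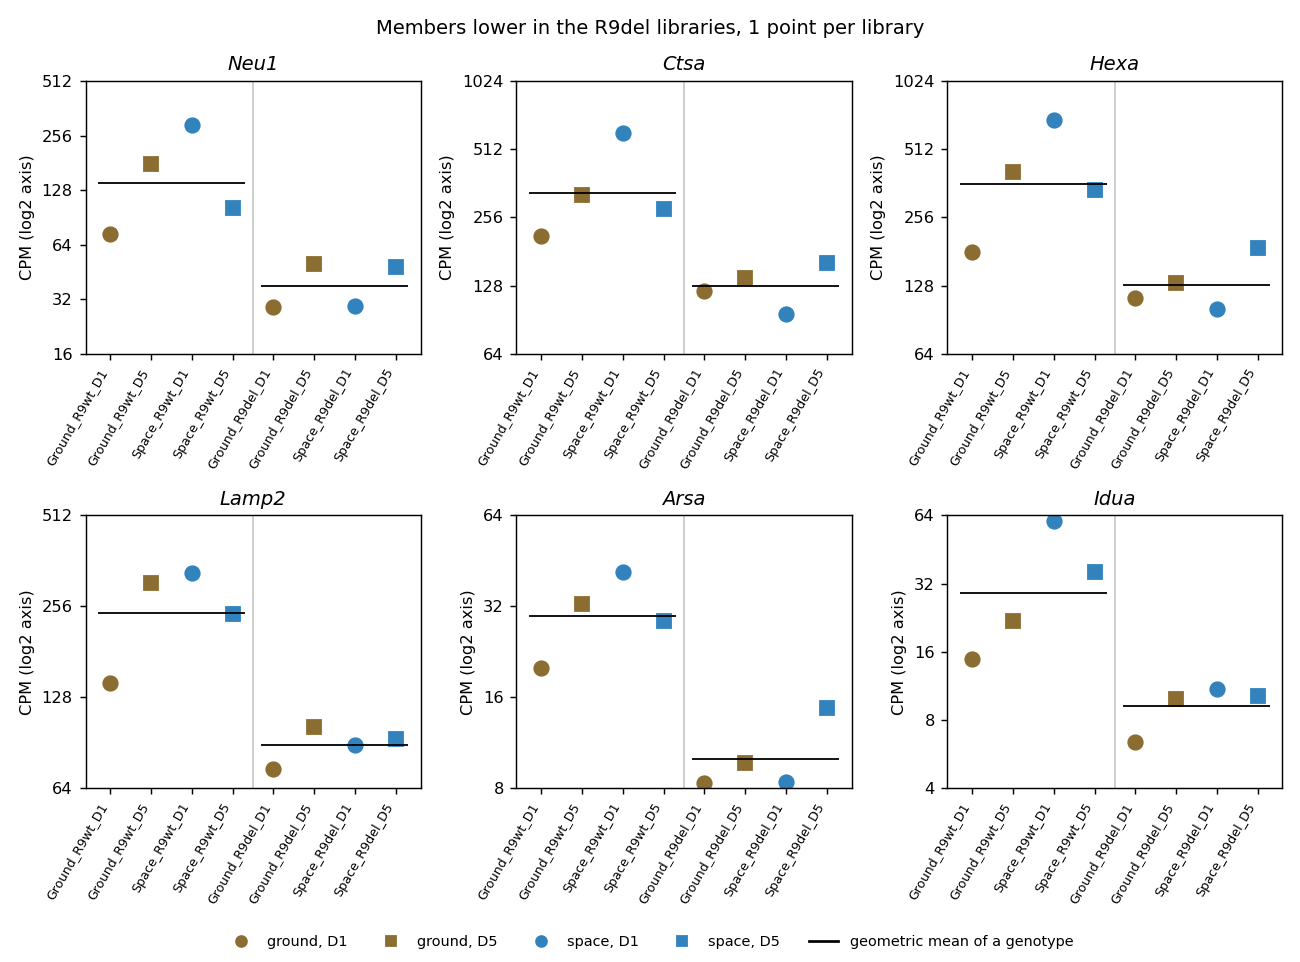
CPM (log2 axis) of Neu1, Ctsa, Hexa, Lamp2, Arsa and Idua in each of the 8 libraries, 1 point per library, with brown for ground, blue for space, circles for D1, squares for D5 and a line at the geometric mean of each genotype. The R9wt points on the left spread widely with Space_R9wt_D1 on top, and the R9del points on the right sit lower, with an overlap only in Hexa (180 CPM in Ground_R9wt_D1, 188 CPM in Space_R9del_D5).

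Galc, which degrades galactosylceramide, fell by 1.07 (log2, SE 0.36, adjusted p = 0.147), with 10.7, 13.6, 25.0 and 25.9 CPM in R9wt and 6.73, 8.20, 11.1 and 9.56 CPM in R9del. Its log2 fold change was -0.99 with the replicate block and -0.97 without Ground_R9del_D1, -0.91 without Space_R9wt_D1 and -0.87 without Space_R9wt_D5, so each of these ended the call. The call of Galc was also lost with the additive model. Arsb had the lowest level of all members, with 2.04, 1.25, 0.552 and 4.83 CPM in R9wt and 0.718, 0.779, 0.739 and 0.956 CPM in R9del. Its log2 fold change of -1.42 (SE 0.61, adjusted p = 0.228) rested on Space_R9wt_D5, since Space_R9wt_D1 was lower than every R9del library. Without Space_R9wt_D5 it was -0.65 and not called. The call was also lost with the block (-1.03), with the additive model and without any of 5 other libraries. A gene on the opposite strand covers 45.3% of the exon length of Arsb. Naglu was lower in R9del in 4 of 4 pairs but not called, at -1.02 (log2, SE 0.64, adjusted p = 0.403), and was called with the replicate block at -1.16 (adjusted p = 0.0676), with the additive model at -1.17 and without Ground_R9del_D5 at -1.64. Manba, the beta-mannosidase of glycoprotein breakdown, was the member that rose, by 1.10 (log2, SE 0.42, adjusted p = 0.187). It had 25.5, 13.7, 19.8 and 32.7 CPM in R9wt and 26.4, 39.0, 38.6 and 90.3 CPM in R9del, so the groups overlapped, and Space_R9del_D5 stood far above the rest. The log2 fold change of Manba was 0.60 without Space_R9del_D5, 0.90 without Ground_R9wt_D5 and 1.02 without Space_R9wt_D1, and it was not called in any of these. Nor was Manba called with the additive model.

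Over all 36 members the log2 fold change of R9del against R9wt was negative in 27, with a median of -0.47. Over all genes tested the median was -0.05. All 8 lipid enzymes and activators were negative, with a median of -0.71 and a range from -1.07 to -0.18. Psap was among them at -0.99 (SE 0.34, adjusted p = 0.154), with 423, 1012, 1085 and 1424 CPM in R9wt and 378, 492, 518 and 581 CPM in R9del. It was called with no filter (-1.002) and without Ground_R9wt_D1, Space_R9del_D1 or Space_R9del_D5. Negative values were found for 6 of 8 proteases (median -0.47), 7 of 10 glycosidases (median -0.35), 2 of 4 sulfatases (median -0.53) and 4 of 6 membrane proteins and regulators (median -0.21). Glb1, the beta-galactosidase that joins Neu1 and Ctsa in the complex, had a log2 fold change of -0.48 (SE 0.31, adjusted p = 0.417), with 119, 173, 206 and 305.5 CPM in R9wt and 107, 128, 164 and 173 CPM in R9del. A second gene model of Glb1, which overlaps 5.62% of its exon length on the same strand, was counted separately at 12.9 to 42.4 CPM. It was higher in R9del in every pair, with 12.9, 15.0, 29.4 and 24.8 CPM in R9wt and 39.3, 18.4, 42.4 and 36.3 CPM in R9del. Gusb, the beta-glucuronidase, was the steadiest member, at 34.1 to 42.5 CPM over the 8 libraries and a log2 fold change of 0.08 (SE 0.20).

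**Figure D2:**
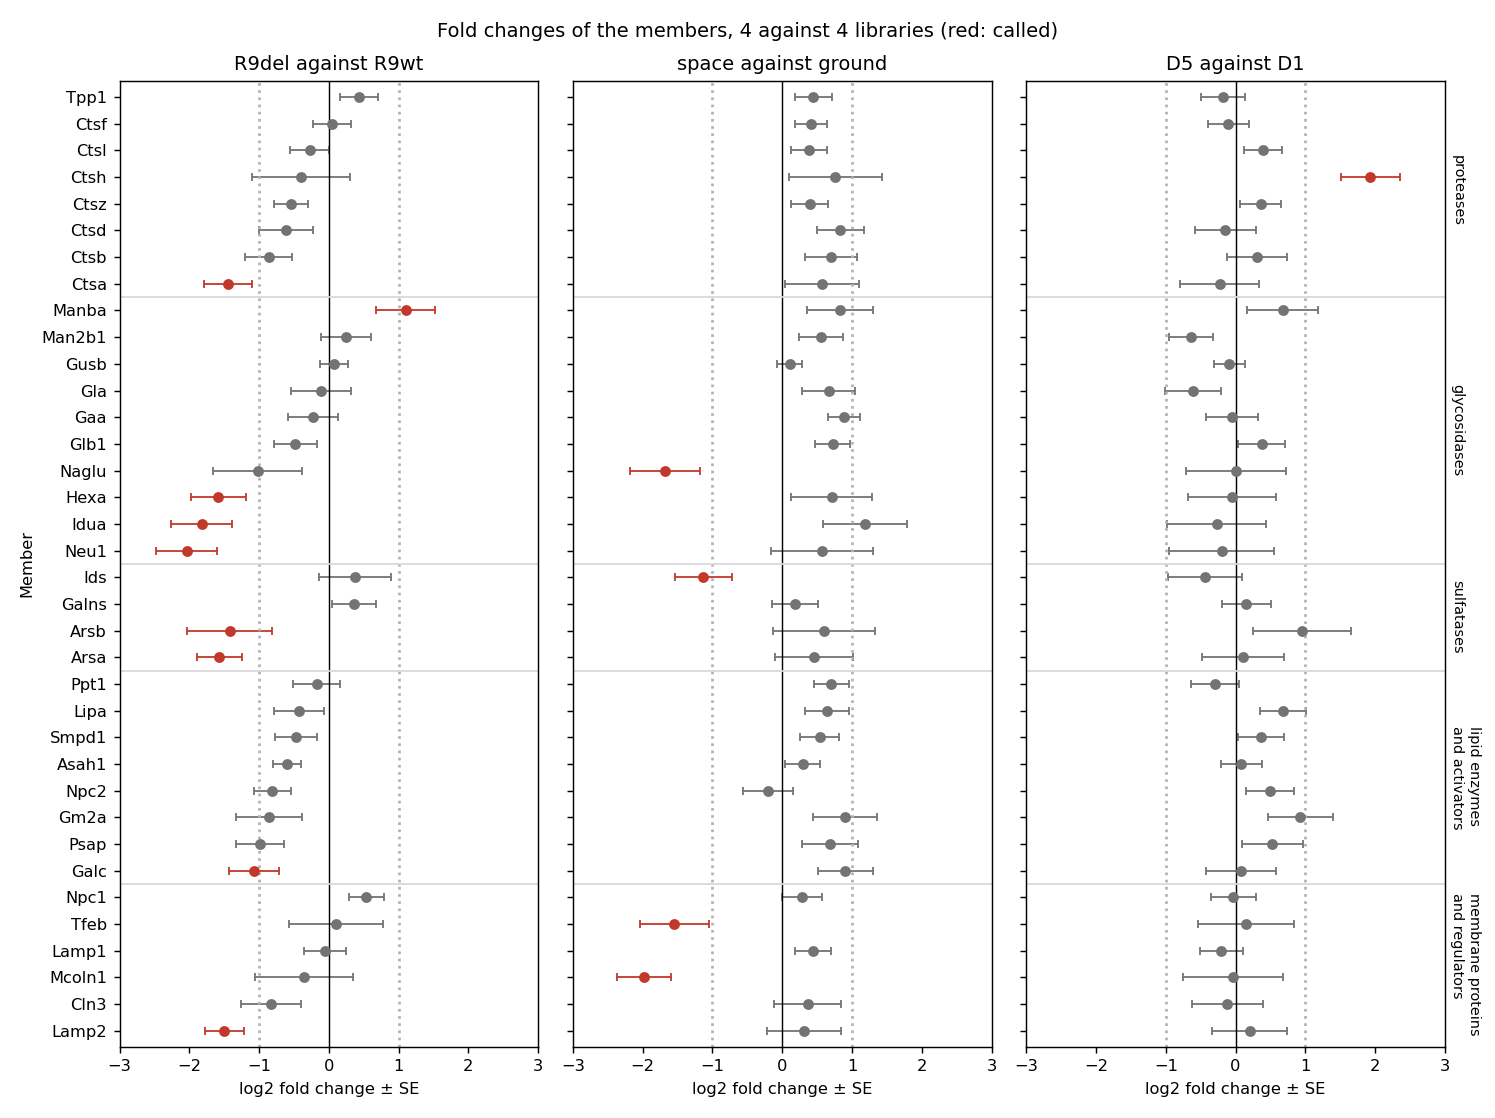
Log2 fold change (x axis) of each of the 36 members from edgeR, 4 libraries against 4, for R9del against R9wt, space against ground and D5 against D1, with bars of 1 SE, dotted lines at a fold change of 2 and calls at a fold change of 2 and unadjusted p in red. Calls lie mainly to the left in the genotype panel (8 lower, 1 higher), 4 lie to the left among mainly positive values in the space panel, and Ctsh is called alone in the duration panel.

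Pairs of single libraries of the 2 genotypes, matched on location and duration, gave sizes that varied. Past 2-fold in R9del against R9wt, 0 members were higher (10.9% of 17597 genes) and 6 lower (11.8%) on the ground at D1, and 1 was higher (16.5%) and 11 lower (15.0%) on the ground at D5. In space at D1, 2 were higher (18.3%) and 15 lower (15.9%). In space at D5, 2 were higher (11.8%) and 6 lower (13.5%). For Neu1 the log2 difference was -1.33 in the ground pair at D1 and -1.83 in that at D5, and -3.32 and -1.08 in the space pairs. These pairs have no replicate, so no test was made on them.

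Many members followed Neu1 from library to library. Pearson's r with Neu1, over the log2 CPM of the 8 libraries, was at least 0.7 in 14 of 35 members and in 11.2% of all other genes tested. The median r was 0.50 over the members and -0.02 over all genes. Ctsa and Hexa came first (r = 0.98 each), then Lamp2 (r = 0.97, Spearman's rho 1.00) and Arsa (r = 0.96). Idua had r = 0.91. The 8 points share the genotype difference and the scaling, so r describes these libraries and carries no p. With each genotype's mean removed, a choice made after seeing the data, 9 of 35 members had r of at least 0.7, against 4.62% of all genes. Of these 9, 8 were among the 14 of the first count, including Ctsa (0.93), Hexa (0.93) and Lamp2 (0.88). The library Space_R9wt_D1, highest for Neu1, was the highest for 13 of the 35 other members and for 16.1% of all genes, and Ground_R9del_D1, lowest for Neu1, was the lowest for 13 of the 35 and for 12.7% of all genes. Without Space_R9wt_D1, 10 members had r of at least 0.7.

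**Figure D3:**
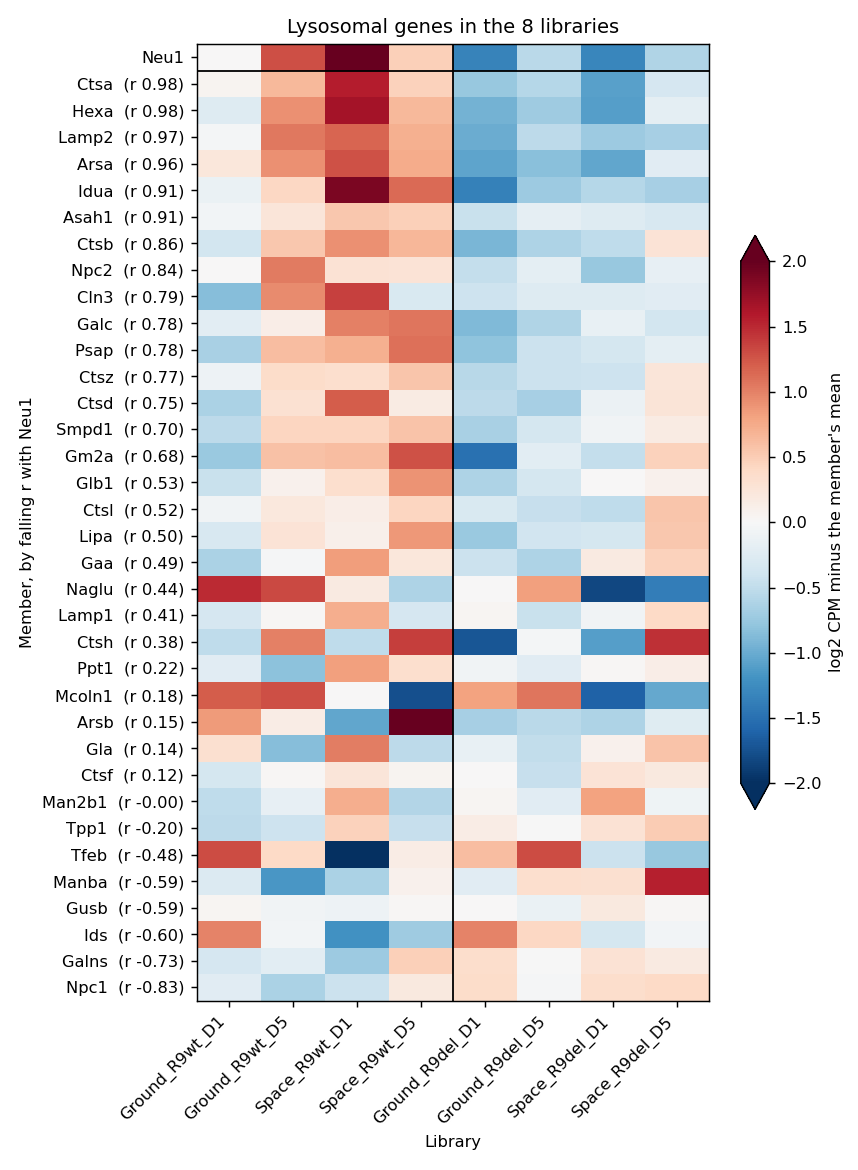
Log2 CPM of each member minus its own mean (colour, red high, blue low) in the 8 libraries (columns, R9wt left of the line, R9del right), with members ordered by falling r with Neu1. The upper rows share the dark red of Space_R9wt_D1 and the blue of the 4 R9del libraries, and Mcoln1, Naglu, Tfeb and Ids are blue mainly in space libraries.

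At the other end, Npc1, the membrane transporter that exports cholesterol from the lysosome, had r = -0.83 with Neu1. Its levels were 27.5, 20.8, 23.8 and 37.1 CPM in R9wt and 41.5, 31.6, 41.3 and 42.3 CPM in R9del. Galns, the galactosamine-6-sulfatase, had r = -0.73, with 7.26, 7.85, 5.51 and 12.6 CPM in R9wt and 11.6, 9.10, 11.2 and 10.3 CPM in R9del. Neither was called by genotype, with log2 fold changes of 0.54 (SE 0.26, adjusted p = 0.275) and 0.36 (SE 0.31, adjusted p = 0.560). Ids had r = -0.60, and Gusb and Manba r = -0.59 each. Tfeb itself had r = -0.48 and Mcoln1 0.18.

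**Figure D4:**
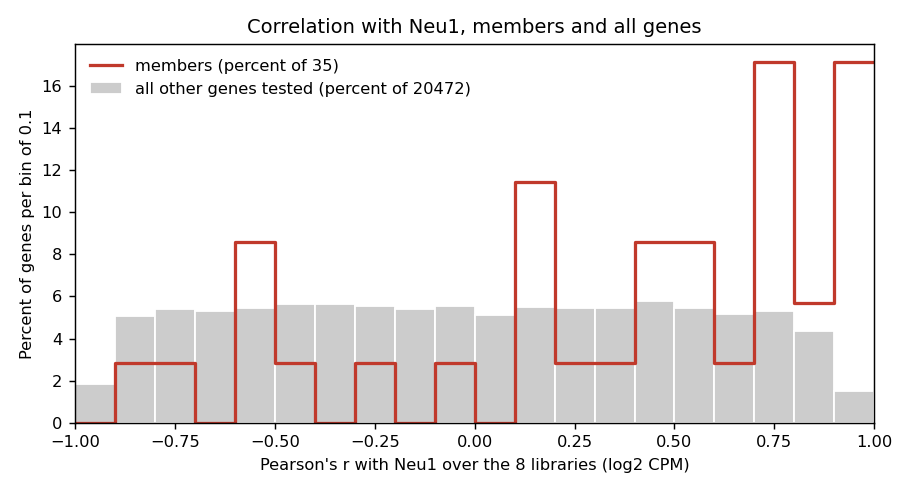
Share of genes (y axis, percent per bin of 0.1) by Pearson's r with Neu1 over the 8 libraries, for the 35 other members (red line) and all other genes tested (grey bars). All genes spread widely around a median of -0.02, and the members pile up at the right, with 14 of 35 at 0.7 or more.

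Between space and ground, by the same rule of fold and unadjusted p, 4 members fell in space and none rose. Among all genes tested, 7.97% fell and 2.91% rose. Mcoln1, Naglu, Tfeb and Ids fell, each in 4 of 4 pairs of libraries matched on genotype and duration. With an adjusted p under 0.05, 1 member, Mcoln1, fell (4.83% of all genes) and none rose (0.581%). Mcoln1 and Tfeb did not overlap between space and ground (9.37% of all genes lower without overlap), nor did Gaa, Ppt1 and Ctsf, which were higher in space (5.07%). Markers of cell state moved between the locations as well. In space the stem cell markers Esrrb and Sox2 had log2 fold changes of 1.20 (adjusted p = 0.00635) and -0.94 (adjusted p = 0.0317). The median over the 8 stem cell markers was -0.34. Their sums, ground then space, were 7819 and 4352 CPM in R9wt at D1 and 6943 and 4974 CPM at D5. In R9del they were 5159 and 4985 CPM at D1 and 5623 and 5876 CPM at D5. Of the 10 endoderm markers, Cubn and Dab2 were called higher and Sox17 and Amn lower, with a median of 0.70. Cdx2 and Ascl2, of the 6 tested trophoblast markers, were called lower, and Tfap2c had a negative value (-0.30). Plac1, Hand1 and Krt8 had positive values (2.52, 0.91 and 0.67), and the median of that list was 0.18. The fibroblast sums given above were higher in space in all 4 pairs, and Pdgfrb was called higher (1.20, adjusted p = 0.201). Thy1 and Twist2 had negative values (-0.25 and -1.49) and the other tested fibroblast markers positive ones, with a median of 0.62. The part of these in the values by location was not tested.

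Mcoln1 encodes mucolipin 1, the cation channel through which the lysosome releases calcium, and is a known target of TFEB. On the ground it stood at 112, 119, 85.1 and 103 CPM, in the order R9wt D1, R9wt D5, R9del D1, R9del D5 that is kept through the values by location. In space it stood at 49.0, 14.4, 15.8 and 23.8 CPM. The ground libraries were close together and every space library was far below them, at 105 ± 14.7 against 25.8 ± 16.0 CPM (SD, n = 4), a log2 fold change of -1.98 (SE 0.38, adjusted p = 0.0129). The gene lies at mm9 chr8:3500457-3515232 on the plus strand, and its promoter window, printed above, held the CLEAR core.

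Tfeb, the transcription factor of the CLEAR element, was at 57.8, 30.95, 36.03 and 58.3 CPM on the ground. The space libraries had 3.93, 26.0, 17.4 and 14.0 CPM, all below the lowest ground library, with Space_R9wt_D1 far below the others. The log2 fold change was -1.54 (SE 0.49, adjusted p = 0.104), past the fold and the unadjusted threshold only. Space_R9wt_D1, the library with the least Tfeb, had the highest level of 14 of the 36 members.

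Naglu, the alpha-N-acetylglucosaminidase of heparan sulfate breakdown, had 14.3, 12.7, 5.10 and 9.05 CPM on the ground and 5.75, 3.33, 1.45 and 1.96 CPM in space. Space was lower within each pair, and Space_R9wt_D1 overlapped Ground_R9del_D1. Its log2 fold change was -1.68 (SE 0.50, adjusted p = 0.0866), and -1.78 with the replicate block (adjusted p = 0.00874). Ids, the iduronate-2-sulfatase, had 6.29, 3.06, 6.29 and 4.24 CPM on the ground and 1.37, 1.93, 2.50 and 3.07 CPM in space. The highest space library and the lowest ground library were nearly equal, and the log2 fold change was -1.13 (SE 0.40, adjusted p = 0.153). Without Space_R9wt_D1 it was -0.98 and not called.

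**Figure D5:**
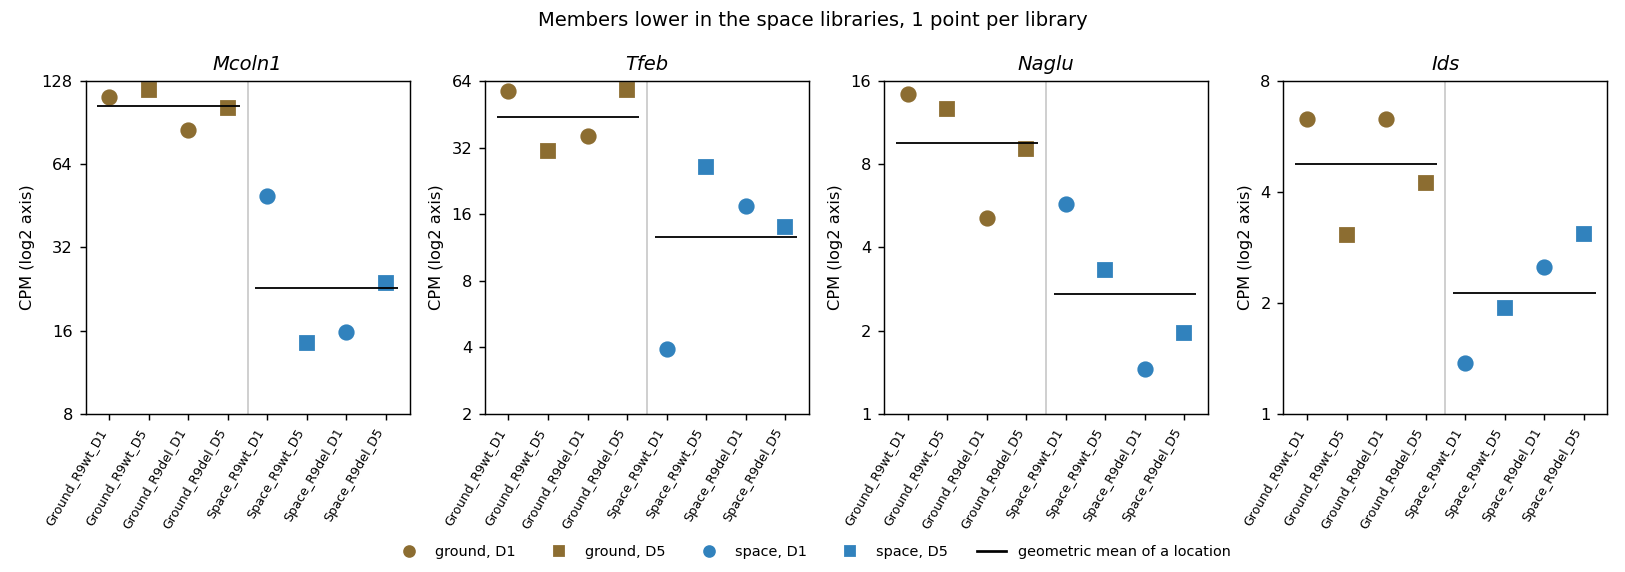
CPM (log2 axis) of Mcoln1, Tfeb, Naglu and Ids in each of the 8 libraries, ground at the left (brown) and space at the right (blue), with circles for D1, squares for D5 and a line at the geometric mean of each location. Mcoln1 runs from 85.1 to 119 CPM on the ground and from 14.4 to 49.0 CPM in space, and the Naglu and Ids points of the 2 locations overlap slightly.

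Among the other members, positive values prevailed in space. The log2 fold change was positive in 31 of 36 members, with a median of 0.55, and in 52.9% of all genes, with a median of 0.05. Without Space_R9wt_D1 it was positive in 26 members, with a median of 0.36 (-0.01 over all genes). All 8 proteases were positive (median 0.51), as were 9 of 10 glycosidases (median 0.69) and 7 of 8 lipid enzymes and activators (median 0.66). Values were also positive in 3 of 4 sulfatases and 4 of 6 membrane proteins and regulators, with lower class medians (0.31 and 0.30). Gaa, the acid alpha-glucosidase that degrades glycogen, is named after its values were seen, because it had an adjusted p of 0.0459 at a log2 fold change of 0.89 (SE 0.23), under the 2-fold limit. It stood at 130, 200, 151 and 132 CPM on the ground and 363, 238, 228 and 278 CPM in space, without overlap. Glb1 had a log2 fold change of 0.72 (SE 0.25, adjusted p = 0.134) and was higher in space in 4 of 4 pairs. Idua had 1.19 (SE 0.60, adjusted p = 0.330), also higher in 4 of 4 pairs, and was called with DESeq2's Wald test. The count of members that rose was 7 without Ground_R9wt_D5, 3 without Space_R9del_D1, 2 without Space_R9del_D5 and 1 without Space_R9wt_D1. Over all genes, in the same order, 778 of 21069, 598 of 20991, 647 of 21152 and 614 of 21077 rose.

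Ctsd, the most abundant member per length, had 746, 1433, 811 and 731 CPM on the ground and 2692, 1302, 1070 and 1392 CPM in space. Its log2 fold change of 0.83 (SE 0.34) had an adjusted p of 0.212. Space_R9wt_D1 was highest by far, and Space_R9wt_D5 was lower than its ground counterpart. Lamp1 had 211, 273, 275 and 198 CPM on the ground and 441, 213, 256 and 353 CPM in space, so that 2 of 4 pairs were higher in space (log2 fold change 0.44, SE 0.26, adjusted p = 0.423). Both promoters held an E-box, as that of Mcoln1 did, and for both genes the space and ground libraries overlapped.

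By single pairs, higher levels in space were most numerous in the wild type at D1. There 16 members were past 2-fold higher in space (14.1% of all genes) and 5 lower (19.8%). In R9wt at D5, 3 were higher (16.8%) and 3 lower (19.3%). In R9del at D1, 1 was higher (9.09%) and 4 lower (12%), and in R9del at D5, 5 were higher (7.85%) and 3 lower (15.1%). The median log2 difference over the members was 0.87 in R9wt at D1, 0.12 in R9wt at D5, 0.17 in R9del at D1 and 0.39 in R9del at D5. Neu1 differed by 2.01 in R9wt at D1, -0.80 in R9wt at D5, 0.02 in R9del at D1 and -0.05 in R9del at D5. Whether the space difference depended on duration was not tested.

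Whether it depended on genotype was tested as the interaction of location and genotype, with duration as a covariate. In edgeR none of 22561 genes, members included, passed an adjusted p of 0.05 (0%). No member had an unadjusted p under 0.05 either, as 3.12% of all genes had, and DESeq2 called 34 genes at adjusted p, none of them a member. The interaction of Neu1 was -0.86 on the log2 scale (adjusted p = 1.00), and 0.61 without Space_R9wt_D1. In the log2 CPM of the 8 libraries, genotype took a median of 27.1% of the variation of a member (19.0% over all genes) and location 21.5% (14.9%). With library size alone as the scaling this order turned, at 26.2% for genotype and 28.7% for location. Culture duration took 5.40% (6.34%), and the term that joins all 3 variables 6.76% (4.39%). Genotype was the leading term for 16 members (33.8% of all genes), location for 10 (30.4%) and duration for 4 (12.3%).

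In D5 against D1, 1 member, Ctsh, rose by fold and unadjusted p (2.35% of all genes) and none fell (1.08%). At an adjusted p under 0.05 edgeR called no gene in either direction (0% of all genes), whereas DESeq2 called 90 genes. Ctsh, the cysteine aminopeptidase cathepsin H, had 9.19, 4.02, 9.27 and 6.14 CPM at D1 and 26.3, 12.8, 34.3 and 36.1 CPM at D5, in the order ground R9wt, ground R9del, space R9wt, space R9del. All 4 pairs were higher at D5 and the groups did not overlap (1.68% of all genes higher without overlap, 1.17% lower), with a log2 fold change of 1.93 (SE 0.43, adjusted p = 0.887). DESeq2's Wald test gave Ctsh an adjusted p of 0.00856. Of the 10 markers of primitive and visceral endoderm, 6 were called higher at D5, and of 6 tested markers of trophoblast, 4. The summed endoderm markers were at 19.4 to 78.5 CPM in the D1 libraries and 105 to 338 CPM in the D5 libraries, with Afp and Ttr at 0 in at least 1 library. The summed trophoblast markers were at 86.1 to 203 CPM at D1 and 250 to 921 CPM at D5, with Elf5 at 0 in at least 1 library. Acta2 and Col1a2 of the fibroblast list and Csf1r of the macrophage list were also called higher at D5 (3.69, 1.88 and 3.63). Of the other macrophage markers tested, Ptprc and Cd68 had negative values (-2.37 and -0.02) and Fcgr3 a positive one (0.48). The macrophage sum given above was higher at D5 in the ground pairs and lower in the space pairs. The fibroblast sum was higher at D5 in all 4 pairs. The part of such cells in the value of Ctsh was not tested.

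Over the 36 members 19 D5 to D1 values were positive, with a median of 0.04. There were 26 positive values with the replicate block (median 0.14), and 25 without Space_R9wt_D1 (median 0.56). The median was -0.055 to -0.018, with 16 to 17 positive, without Ground_R9wt_D5, Ground_R9del_D1, Space_R9wt_D5 or Space_R9del_D1. Over all genes in the main setting 47.5% were positive, with a median of -0.03. Gm2a, the activator protein that presents GM2 ganglioside to beta-hexosaminidase, is named after its values were seen, since it was called higher at D5 with the replicate block (log2 fold change 1.04, adjusted p = 0.342) against 0.93 without it. In single pairs, 8 members were past 2-fold higher at D5 (15.0% of all genes) and 2 lower (14.1%) in ground R9wt, whereas 4 were higher (14.9%) and 9 lower (12.7%) in space R9wt. In R9del, 2 were higher (7.04%) and 0 lower (5.69%) on the ground, and 3 were higher (6.31%) and 0 lower (8.09%) in space. Neu1 was 1.29 higher at D5 in ground R9wt on the log2 scale and 1.53 lower in space R9wt, a difference that was not tested.

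Further genes of the lysosome were examined in lists. Of 33 tested genes for other lysosomal enzymes and membrane proteins, 8 fell and none rose in R9del against R9wt, beside 7.39% and 6.37% of all genes. The count that fell was 5 without Ground_R9wt_D5 or Ground_R9del_D1. Among the 8 were Ctso, Lgmn, Slc17a5, Cd63, Laptm4b and Abca2. Laptm4b, a transmembrane protein of late endosomes and lysosomes, had a log2 fold change of -1.06 (adjusted p = 0.0495) and r = 0.93 with Neu1. In space against ground 4 of the 33 fell and none rose, beside 7.97% and 2.91% of all genes, among them Tmem192 (-1.97, adjusted p = 0.00171), Plbd2 (-1.53, adjusted p = 0.00116) and Hgsnat (-1.38, adjusted p = 0.0888). At D5, 1 rose (Ctso, beside 2.35% of all genes) and none fell, and the count that rose was 0 to 4 when single libraries were left out (4 without Space_R9wt_D1).

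Of the 17 subunits of the proton pump that acidifies the lysosome (V-ATPase), 2 fell in R9del, Atp6v0b and Atp6ap1, and none was called by location or duration. The count in R9del, beside 7.39% of all genes, was unchanged in 3 of 6 other settings and was 1 with the replicate block. When single libraries were left out it was 0 to 2, unchanged in 3 of 8 fits and 0 without Space_R9wt_D1. The count that rose in space, beside 2.91% of all genes, was 1 in 2 of 6 other settings, the block among them. It was 1 without Ground_R9wt_D5 or Ground_R9del_D1 and 2 without Space_R9del_D1. Of 22 genes for TFEB relatives and lysosomal mTORC1 signalling, Rragb and Rragd, which encode Rag GTPases, fell in R9del, with log2 fold changes of -2.44 (adjusted p = 0.0328) and -1.71 (adjusted p = 0.0952). Without single libraries, 2 to 4 of these 22 fell and 0 to 2 rose in R9del, and 0 to 1 rose in other settings. In space Rheb, the GTPase that activates mTORC1, fell by 1.82 (log2, adjusted p = 0.00131) and Flcn, the folliculin that acts on Rag GTPases, rose by 1.05 (adjusted p = 0.0808). The count of this list that rose in space was 0 with the replicate block and 2 with DESeq2's Wald test. When single libraries were left out it was 0 to 2, unchanged in 4 of 8 fits and 0 without Ground_R9wt_D1. The count that fell in space was 3 without Space_R9wt_D1. Tfe3 and Mitf, the relatives of Tfeb, were not called in any comparison. Of 27 genes for sorting to the lysosome and autophagy, Map1lc3a, Nagpa and Gga2 fell and Vps39 rose in space, Wipi1 fell in R9del, and none was called by duration. When single libraries were left out, 1 to 3 of these 27 fell in space (1 without Space_R9del_D5) and 0 to 3 rose (0 without Space_R9wt_D1, 3 without Space_R9wt_D5). In R9del 1 to 2 fell, both in other settings and without single libraries. At D5, 0 to 1 rose in other settings and 0 to 1 fell without single libraries. Beside these 2 lists, 7.39% of all genes fell and 6.37% rose in R9del, and 7.97% fell and 2.91% rose in space. At D5, 1.08% of all genes fell and 2.35% rose.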

How the data were processed

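RNA from the 8 mESC cultures was sequenced as paired-end mRNA libraries on an Illumina HiSeq instrument, 1 library for each condition. Per the labels and the submitters' processing notes, the reads were aligned to mm9 with TopHat2 2.0.9, and the authors deposited raw counts per Ensembl gene as whole numbers. The counting program, its annotation and its use of strand are not given in the sources used here. From these counts, edgeR 4.0.16 (R 4.3.3) gave TMM factors, CPM, log2 CPM (prior count 2) and quasi-likelihood tests across all genes kept by filterByExpr (minimum count 10), with Benjamini-Hochberg adjustment over them. A call needs a 2-fold difference or more with an unadjusted p under 0.05 (as in the study) or, stricter, an adjusted p under 0.05. Pairs of single libraries were compared over 17597 genes by fold alone. Scripts were tested on simulated data. Libraries that share the other 2 conditions deviated together (correlations over genes of 0.284 to 0.610), so the fit with matched pairs, taken from the conditions in the labels, is given where it changes a call. Intervals cover the spread between libraries, and a count of 0 would allow at most 0.0503 CPM, for counting error only.

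Symbols, exons and mm9 positions came from GENCODE M1, and promoters from RefSeq. Alternatives were other scalings, no filter, DESeq2 1.42.0, an additive model and leaving out each library. Named members are Neu1, Ctsa, Glb1, Tfeb, every member called in a group comparison, the 4 with the highest and the 4 with the lowest r with Neu1, and the highest per length of each class. Others are named after their values were seen, to complete a count. Some genes of the further lists are not reported here. The members and lists were chosen with earlier results of these data known.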

Additional observations from a re-analysis of the deposited data

Results flagged for a closer look

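Among 126 groups of 4 libraries examined for the 21 named members, 3 held a library that stood apart by Dixon's criterion on log2 CPM, whose chance rate is about 1 group in 20. Npc1 in the R9del libraries was lowest in Ground_R9del_D5 at 31.6 CPM, with the others between 41.3 and 42.3 CPM (gap over range on the log2 scale 0.913). Ctsd in the ground libraries was highest in Ground_R9wt_D5 at 1433 CPM, with the others between 731 and 811 CPM (0.845). In the D5 libraries Ctsd was lowest in Ground_R9del_D5 at 731 CPM, with the others between 1302 and 1433 CPM (0.858).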

How the results depend on the processing

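Ctsa, Neu1, Hexa, Idua, Arsa and Lamp2 fell in R9del, and Mcoln1, Naglu and Tfeb fell in space, under all 14 alternatives run. With DESeq2's Wald test, 1 member rose in space, and the calls at adjusted p were 4 by location, 6 by genotype and 1 by duration. With matched pairs as a replicate block and with the additive model these were 2 by location and 6 by genotype. The block gave median log2 fold changes of 0.42 by location and 0.14 by duration, with 2 members higher at D5. The additive model gave 0.44 and 0.15, 2 members higher at D5 and 0 higher in R9del. Library size alone gave 1 call at adjusted p by genotype, as did no filter, and 2 members past 2-fold higher in Ground_R9del_D5 against Ground_R9wt_D5. With genotype means removed 9 members followed Neu1, and in windows of 150 bases 3 members held the CLEAR core.

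Leaving out 1 library at a time gave 0 to 7 calls at adjusted p by genotype, with 7 only without Ground_R9wt_D1 and 0 without any other library. It gave 1 to 2 such calls by location, 0 to 7 members higher in space, 0 to 1 higher in R9del, 1 to 3 higher and 0 to 1 lower at D5, and a median r with Neu1 of 0.44 to 0.61. The median log2 fold change was 0.36 to 0.66 by location, -0.69 to -0.40 by genotype and -0.055 to 0.56 by duration. The Neu1 difference of mean log2 CPM was -2.20 to -1.54 by genotype (two-sided exact permutation p = 0.0286 without an R9wt library and 0.0571 without an R9del library), -0.33 to 0.78 by location and -0.078 to 1.03 by duration, and its interaction -1.84 to 0.61. Over all genes, calls at adjusted p numbered 416 by genotype in the main setting, 1777 with DESeq2, 1402 with the block, 1233 with the additive model and 157 without the filter. They numbered 535 without Ground_R9wt_D1 and 0 to 105 without any other library. By location such calls numbered 1108, with DESeq2 1702, and 810 to 1121 when single libraries were left out. The cause of these changes was not tested. Each condition had 1 library, and how far depth or the number of cultures limited precision was not tested.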
